A study of Danio rerio with 10 samples.

Results

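SREBP regulators, the low-density lipoprotein receptor and fatty acid synthesis genes were followed in zebrafish embryos (Danio rerio) without functional rbpms2a and rbpms2b. The set was chosen by symbol and holds 9 of the 32266 genes in the deposited table: srebf1, srebf2, scap, insig1, ldlra, fasn, scd, mid1ip1b and elovl6. All 9 were found, and all 9 were among the 20802 genes that passed a filter on low counts. The question was whether these regulators and fatty acid genes move with the genes of sterol synthesis.

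The 5 mutant libraries came from rbpms2a-/-; rbpms2b-/- embryos, double mutants for the pair of genes that encode the RNA-binding protein Rbpms2. The 5 control libraries came from siblings that carry the genotype label wt. For each library 10 whole embryos were pooled at 33 hours post fertilization, so the RNA of all tissues and of the yolk syncytial layer was mixed. In such pools, fewer cells of a type and less RNA per cell cannot be told apart. Mutants were recognised by eye, so siblings with 1 or more mutant alleles may be among the controls, and the sources used here do not name the alleles. Libraries carry the numbers 1, 2, 3, 4 and 6 in both groups and are named mutant 1, control 1 and so on.

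SREBPs are transcription factors that are made as membrane proteins of the endoplasmic reticulum. When membrane sterol is low, the escort protein Scap carries them to the Golgi apparatus, where 2 proteases release the active factor. When sterol is high, Insig proteins hold Scap back. In mammals SREBP-2 acts mainly on genes of cholesterol synthesis and uptake and SREBP-1 mainly on genes of fatty acid synthesis, and several regulators, INSIG1 and the SREBP genes themselves among them, are also targets. At this stage the embryo lives on yolk lipid, which the yolk syncytial layer packs into lipoproteins.

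Total counts ran from 29.1 to 35.2 M in mutants and from 21.5 to 36.0 M in controls (M, 1000000 counts), with control 6 the smallest library. Of the targeted genes, rbpms2a was at 3.17 ± 0.585 CPM in mutants and 5.25 ± 1.09 CPM in controls (SD, n = 5 each; CPM, counts per 1000000 after scaling for library composition), and its ranges did not overlap. Its edgeR adjusted p was 1.00 without a block on the library number and 0.00741 with it. Rbpms2b was at 15.4 ± 4.63 CPM in mutants and 14.2 ± 3.71 CPM in controls. Of 11 markers of blood, muscle, nerve, skin, vessel, lens and cartilage, 10 had a line in the table, all 10 were tested, and their log2 fold changes lay between -0.10 and 0.08. Libraries of the same number resembled each other across all genes, so every gene was tested with and without the number as a block.

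Of the 9 genes, mid1ip1b and elovl6 had the clearest differences. Both are genes of fatty acid synthesis, and each stood at 122% of its control level in mutants. Insig1 was at 117% of the control level, and by CPM it was higher in 3 of the 5 numbers only. Srebf1, srebf2, scap and fasn lay between 98.5 and 107% of it. In the unblocked edgeR fit 0 of the 9 genes passed an adjusted p of 0.05, where 0.00481% of all tested genes did (1 gene), and 1 of the 9, mid1ip1b, had an unadjusted p under 0.05, where 1.95% of all tested genes did. DESeq2 and limma-trend without the block also called 0 of the 9. With the block edgeR called 2 of the 9, mid1ip1b and elovl6, where it called 0.255% of all tested genes (53 genes), and DESeq2 with the block called the same 2. Insig1 joined them at an unadjusted p under 0.05 with the block in edgeR, which makes 3 of the 9, where 10.5% of all tested genes had one.

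Levels between genes were compared as FPKM (fragments per kilobase of gene and 1000000 fragments), averaged over all 10 libraries. Srebf2 stood highest at 25.8 FPKM, above 85.0% of tested genes. Insig1 (12.5), elovl6 (12.1) and mid1ip1b (11.3 FPKM) followed, with ranges over libraries that overlapped each other, so their order is not set. Srebf1 came next at 6.72, then scap at 3.74 and fasn at 2.11 FPKM, each with a range apart from its neighbours. Scd at 0.535 and ldlra at 0.251 FPKM were lowest, with overlapping ranges, and ldlra lay above only 2.65% of tested genes. Counts were few for scd, at 12 to 36 in a library, and for ldlra, at 17 to 65. How far depth or differences between numbers set their spread was not tested.

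**Figure D1:**
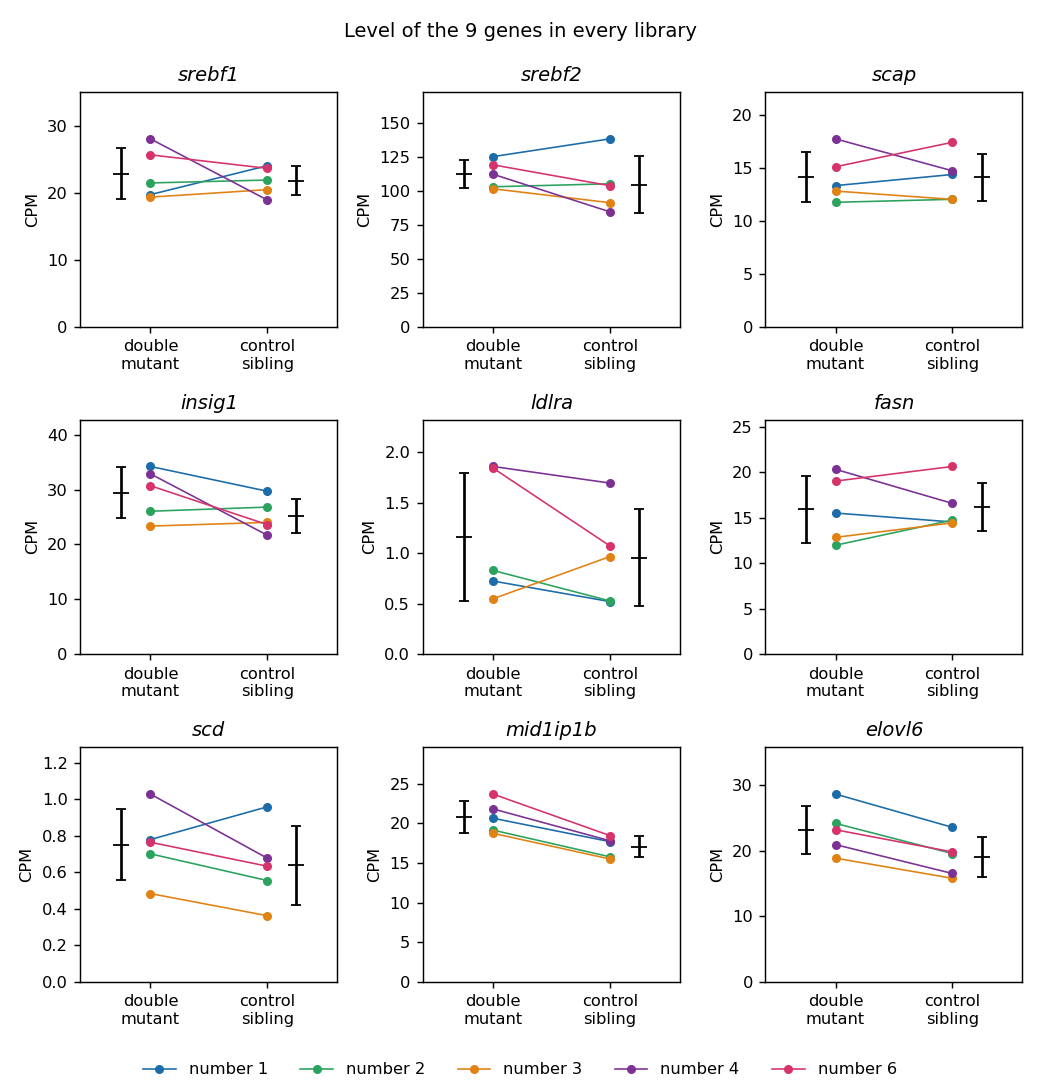
Level of each of the 9 genes in CPM (linear axis from 0) in 5 double mutant and 5 control sibling libraries. Points are libraries, lines join libraries of the same number, and bars beside them are the mean ± SD. For mid1ip1b every mutant library (18.7 to 23.7 CPM) lies above every control library (15.5 to 18.5 CPM), and elovl6 is higher in the mutant of each number although the groups overlap.

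The transcription factors were examined first. Srebf2 encodes the counterpart of SREBP-2, which in mammals acts mainly on genes of cholesterol synthesis and uptake. It was at 125, 103, 101, 112 and 119 CPM in mutants 1, 2, 3, 4 and 6. The controls of those numbers were at 138, 105, 91.1, 84.4 and 104 CPM. The groups overlapped, and control 1 was the highest library of all. The log2 fold change was 0.10 (SE 0.118, 95% interval -0.16 to 0.36), with an edgeR adjusted p of 1.00 without the block and 0.549 with it. Estimated counts of srebf2 were not whole in any library, so some of its reads were shared with another locus. Counts were also not whole for insig1 in 8 libraries, scap and elovl6 in 5 each, ldlra and fasn in 2 each, and mid1ip1b in 1.

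Srebf1 encodes the counterpart of SREBP-1, which in mammals acts mainly on genes of fatty acid synthesis. It was at 19.7, 21.4, 19.3, 28.0 and 25.6 CPM in mutants 1, 2, 3, 4 and 6. The controls of those numbers were at 24.0, 21.9, 20.4, 18.9 and 23.6 CPM. Mutant 4 was the highest library and control 4 the lowest, so the largest difference came from number 4. The log2 fold change of srebf1 was 0.07 (SE 0.115, 95% interval -0.18 to 0.32), and it turned to -0.02 without mutant 4. The ratio of srebf2 to srebf1 did not differ detectably between groups: on the log2 CPM scale it was 2.30 ± 0.245 in mutants and 2.24 ± 0.163 in controls (SD, n = 5 each, exact permutation p = 0.683).

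Scap, the sterol-sensing escort protein, averaged 14.1 ± 2.35 CPM in mutants and 14.1 ± 2.24 CPM in controls (SD, n = 5 each). Its log2 fold change was 0.01 (SE 0.133, 95% interval -0.28 to 0.30), a value whose sign depended on single libraries. Of the variance of its log2 CPM, 83.7% lay between numbers and 0.0031% between groups, where the medians over all tested genes were 73.1% and 3.67%.

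Insig1, which retains Scap, was at 34.2, 26.1, 23.4, 32.9 and 30.7 CPM in mutants 1, 2, 3, 4 and 6, and at 29.7, 26.8, 24.0, 21.7 and 23.6 CPM in the controls of those numbers. By CPM, mutants 1, 4 and 6 lay above their controls, while mutants 2 and 3 lay slightly below them, and the groups overlapped. By FPKM, insig1 was higher in the mutant of every number, though barely in number 3. Mutants 2 and 3 were at 12.2 and 10.5 FPKM, and controls 2 and 3 at 11.4 and 10.4 FPKM. The log2 fold change was 0.23 (SE 0.118, 95% interval -0.03 to 0.48), with an edgeR adjusted p of 1.00. With the block it was 0.22 (SE 0.0808), with an unadjusted p of 0.016 and an edgeR adjusted p of 0.337. Leaving out number 4 moved the blocked estimate to 0.12. In the gene order of the assembly GRCz12tu, insig1 lies on the chromosome of rbpms2b, 156 genes away, and none of the other 8 genes shares a chromosome with a targeted gene.

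The related gene insig2, whose product also retains Scap, chosen like the other relatives after the values were seen, had a difference in mean log2 CPM of -0.03, against 0.22 for insig1. The log2 ratio of insig1 to insig2 was 0.18 ± 0.225 in mutants and -0.07 ± 0.169 in controls (SD, n = 5 each), larger in the mutant of 5 of 5 numbers, with an exact permutation p of 0.103. This was 1 of 7 comparisons of a gene with a relative, and its p adjusted over the 7 was 0.361.

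Ldlra encodes a low-density lipoprotein receptor, which takes up cholesterol-carrying lipoproteins from the circulation. It was at 0.724, 0.829, 0.548, 1.86 and 1.84 CPM in mutants 1, 2, 3, 4 and 6, and at 0.520, 0.527, 0.965, 1.69 and 1.07 CPM in the controls of those numbers. Numbers 4 and 6 were high in mutants, number 4 was highest in controls, and the groups overlapped. The log2 fold change was 0.28 (SE 0.421), with a 95% interval of -0.63 to 1.20 that covers rises and falls alike. The other receptor gene, ldlrb, was more abundant, at 45.6 ± 8.34 CPM in mutants and 40.3 ± 7.73 CPM in controls (SD, n = 5 each). Ldlrb was higher in the mutant of 5 of 5 numbers, and the block gave a log2 fold change of 0.18 with an edgeR adjusted p of 0.123.

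Among the 4 genes of fatty acid synthesis, fasn and scd showed no detectable difference. Fasn, the fatty acid synthase, was at 15.5, 12.0, 12.9, 20.3 and 19.0 CPM in mutants 1, 2, 3, 4 and 6, and at 14.5, 14.8, 14.4, 16.6 and 20.7 CPM in the controls of those numbers. Numbers 4 and 6 were the high ones in both groups. Its log2 fold change was -0.02 (SE 0.157, 95% interval -0.36 to 0.32), and with the block -0.03 (95% interval -0.20 to 0.14). The blocked interval of fasn did not reach the blocked estimate of mid1ip1b or of elovl6, both 0.28.

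Scd, a stearoyl-CoA desaturase that puts the first double bond into saturated fatty acids, was at 0.751 ± 0.195 CPM in mutants and 0.637 ± 0.217 CPM in controls (SD, n = 5 each). It was higher in the mutant of 4 of 5 numbers, control 1 being above mutant 1. The log2 fold change was 0.24 (SE 0.289, 95% interval -0.39 to 0.86), an interval that covers both 0 and the 0.28 of elovl6. The more abundant relative scdb was at 6.28 ± 1.15 CPM in mutants and 6.34 ± 1.55 CPM in controls (SD, n = 5 each).

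Mid1ip1b encodes a relative of the mammalian protein that binds acetyl-CoA carboxylase and raises its activity. Its level was 20.7, 19.2, 18.7, 21.8 and 23.7 CPM in mutants 1, 2, 3, 4 and 6, against 17.7, 15.8, 15.5, 17.8 and 18.5 CPM in the controls of those numbers. The lowest mutant library stood above the highest control library. Ranges that did not overlap, in either direction, were found in 0.466% of all tested genes. The log2 fold change was 0.29 (SE 0.0868, 95% interval 0.10 to 0.48), with an unadjusted p of 0.00578 and an edgeR adjusted p of 1.00 without the block. With the block it was 0.28 (SE 0.0570), with an edgeR adjusted p of 0.047. Without number 1, 2, 3 or 6 that blocked value was 0.11 to 0.223, so mid1ip1b was not called. The estimate stayed between 0.27 and 0.30 without any 1 of the 5 numbers. Why the call was lost was not tested.

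Elovl6 encodes the elongase that lengthens palmitate. Its level was 28.7, 24.2, 18.9, 20.9 and 23.2 CPM in mutants 1, 2, 3, 4 and 6, against 23.6, 19.6, 15.8, 16.5 and 19.8 CPM in the controls of those numbers. Number 1 was highest and number 3 lowest in both groups, and the groups overlapped. The mutant exceeded the control of the same number by 0.28, 0.30, 0.26, 0.34 and 0.23 log2 units. The unblocked log2 fold change of elovl6 was 0.28 (SE 0.130, 95% interval -0.00041 to 0.57), with an unadjusted p of 0.0503 and an edgeR adjusted p of 1.00. With the block it was 0.28 (SE 0.0548), with an edgeR adjusted p of 0.0367, and 0.0626 to 0.206 without number 1, 2, 3 or 6. Of the variance of its log2 CPM, 67.2% lay between numbers, 32.2% between groups and 0.615% in neither.

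**Figure D2:**
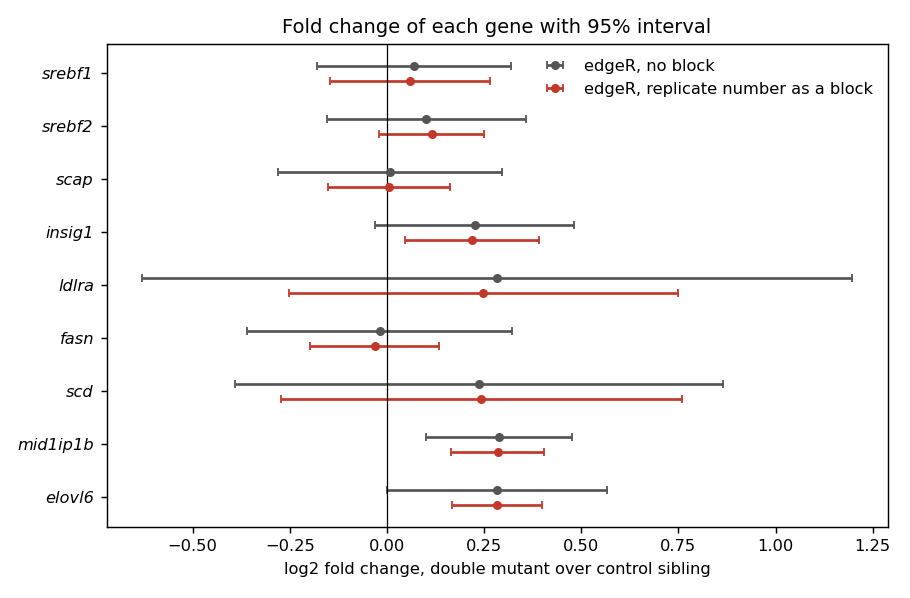
Log2 fold change of each gene, double mutants over control siblings, with its 95% interval, from edgeR without a block (grey) and with the library number as a block (red). The blocked intervals of insig1, mid1ip1b and elovl6 lie above 0, and only those of mid1ip1b and elovl6 go with an adjusted p under 0.05. The intervals of ldlra and scd, the genes with the fewest counts, are the widest.

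Relatives of the genes called under the block were set beside them. For mid1ip1a the difference in mean log2 CPM was 0.05 and for mid1ip1l -0.08, against 0.29 for mid1ip1b. The log2 ratio of mid1ip1b to mid1ip1l was 0.15 ± 0.380 in mutants and -0.22 ± 0.231 in controls (SD, n = 5 each), larger in the mutant of 5 of 5 numbers (exact permutation p = 0.103, 0.361 adjusted over the 7 comparisons). For mid1ip1b against mid1ip1a the exact permutation p was 0.286. Elovl6l, the closest relative of elovl6 by name, had a difference of 0.04 against 0.28 for elovl6, with an exact permutation p of 0.325 for the ratio. None of the 7 ratios passed the permutation test, which ignores the numbers. Read as pairs, the ratios of insig1 to insig2 and of mid1ip1b to mid1ip1l each had an exact sign-flip p of 0.0625, the smallest that 5 pairs allow, and for the other 5 ratios it lay between 0.188 and 0.938.

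The 9 genes were then read by library number. In number 4 all 9 were higher in the mutant, where 51.0% of all tested genes were. The count was 7 of 9 in number 6, 5 of 9 in numbers 1 and 3, and 4 of 9 in number 2, while the share of all tested genes lay between 49.8 and 50.5%. Number 4 gave the highest difference for srebf1 (0.57), srebf2 (0.41), scap (0.27), insig1 (0.60), fasn (0.29), scd (0.56) and elovl6 (0.34), all in log2 units. By FPKM, insig1 was higher in the mutant of every number. By CPM, mid1ip1b and elovl6 were the 2 genes of the 9 that were higher in the mutant of 5 of 5 numbers, as were 5.62% of all tested genes. Their differences were also the most even, at 0.22 to 0.36 and 0.23 to 0.34 log2 units. For mid1ip1b 61.5% of the variance of log2 CPM lay between groups, against that median of 3.67% over all tested genes.

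Sterol synthesis genes gave the values against which the 9 genes were read. Of 25 symbols in that list 22 were in the table and tested, and 20 of the 22 had a log2 fold change above 0, with a median of 0.32, where the median of all tested genes was 0.002. In the unblocked edgeR fit 0 of the 22 passed and 9 had an unadjusted p under 0.05, all higher in mutants, and DESeq2 called 1 (fdps). With the block 3 passed, all higher: fdps (farnesyl diphosphate synthase), cyp51 (lanosterol demethylase) and hmgcs1 (HMG-CoA synthase), and without 1 number between 2 and 6 did. Of the 3, hmgcs1 missed the threshold without number 1, 2, 3 or 6, while fdps and cyp51 passed without any 1 number. Their blocked log2 fold changes were 0.40, 0.41 and 0.29, with edgeR adjusted p-values of 0.00169, 0.00199 and 0.0227. Cyp51 stood at 30.4 ± 6.15 CPM in mutants and 22.8 ± 3.80 CPM in controls (SD, n = 5 each), and hmgcs1 at 34.4 ± 4.92 CPM in mutants and 28.0 ± 2.48 CPM in controls (SD, n = 5 each). Fdft1 (squalene synthase, 0.46) and tm7sf2 (a sterol reductase, 0.55) had larger unblocked log2 fold changes but blocked edgeR adjusted p-values of 0.0836 and 0.129.

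Set side by side within each number, the median of the sterol list was 0.16, 0.26, 0.32, 0.19 and 0.39 log2 units in numbers 1, 2, 3, 4 and 6. Mid1ip1b, at 0.22, 0.28, 0.27, 0.29 and 0.36, had the sterol list's sign in every number and a size close to it. Insig1, at 0.20, -0.04, -0.04, 0.60 and 0.38 by log2 CPM, had that sign in 3 numbers. Srebf2, at -0.14, -0.03, 0.15, 0.41 and 0.20, also had it in 3. Elovl6, at 0.28, 0.30, 0.26, 0.34 and 0.23, had it in all 5 numbers, but was lowest in number 6, where the sterol median was highest. Ldlra and scd had it in 4 numbers, and srebf1, scap and fasn in 2. The median difference of the 9 genes was 0.09, -0.03, 0.09, 0.34 and 0.23 in numbers 1, 2, 3, 4 and 6. Over the 9 genes the median log2 fold change was 0.23, with 8 of 9 above 0 and a lowest value of -0.02, that of fasn. That median rests on single libraries: in edgeR it was 0.13 without control 2, 0.08 without control 3, 0.09 without mutant 4 and 0.08 without mutant 6. It also depends on the scale: with all libraries limma-trend gave 0.09 at a pseudocount of 1 and 0.17 at a pseudocount of 0.1. Without any 1 library the median of the sterol list lay between 0.26 and 0.38.

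**Figure D3:**
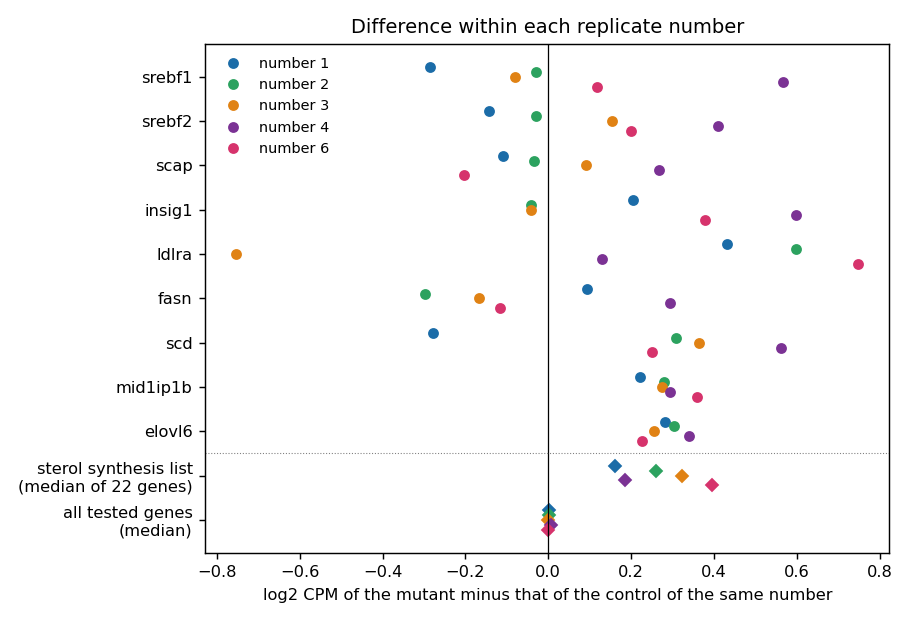
Difference in log2 CPM between the mutant and the control of the same library number for each of the 9 genes (circles) and for the medians of the sterol synthesis list and of all tested genes (diamonds). Mid1ip1b and elovl6 keep to 0.22 to 0.36 in every number, within the range of the sterol list (0.16 to 0.39). Elovl6 is lowest in number 6, where the sterol list is highest. The other genes of the 9 each fall on both sides of 0. Number 4 lies farthest to the right for each of the 9 genes except ldlra and mid1ip1b.

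Other genes of the same pathway were counted from lists of symbols. Of 40 table lines for other fatty acid synthesis genes 37 were tested, with a median log2 fold change of 0.03 and 24 above 0. Without the block 0 passed in edgeR, DESeq2 or limma-trend and 1 had an unadjusted edgeR p under 0.05. With it edgeR called 1, fads2, a desaturase of polyunsaturated fatty acids, and DESeq2 called 0. Fads2 was at 4.92 ± 0.856 CPM in mutants and 3.37 ± 0.707 CPM in controls (SD, n = 5 each), and its log2 fold change with the block was 0.54 (edgeR adjusted p 0.047, and above 0.05 without number 1, 2, 3 or 6). It lies 52 genes from rbpms2a in the gene order of GRCz12tu. Aacs (acetoacetyl-CoA synthetase), the citrate carrier gene slc25a1a and the elongase gene elovl8b had log2 fold changes of 0.21, 0.11 and 0.23, with blocked edgeR adjusted p-values of 0.408, 0.575 and 0.421.

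Other genes of SREBP regulation were counted in the same way. Of 24 table lines 22 were tested, with a median log2 fold change of -0.02. In edgeR and DESeq2 0 passed with or without the block, and 0 had an unadjusted unblocked p under 0.05. Of the 22, 5 lay above 0 and 17 below, where 10245 of all 20802 tested genes lay below. With the block 2 had an unadjusted edgeR p under 0.05, both lower in mutants, where 10.5% of all tested genes had one. In 5 of 5 numbers 3 of the 22 were lower in the mutant, where 5.01% of all tested genes were. Both protease genes were close to 0: mbtps1 was at 62.4 ± 2.08 CPM in mutants and 63.0 ± 3.75 CPM in controls, and mbtps2 at 17.6 ± 1.08 CPM in mutants and 17.4 ± 1.47 CPM in controls (SD, n = 5 each, chosen after their values were seen). The ubiquitin ligase genes rnf145a and rnf139, whose mammalian products act on HMG-CoA reductase or Scap, had log2 fold changes of -0.16 and 0.07. For ubxn4 it was -0.20, and for the less abundant of 2 lines named erlin2 -0.68 at 0.256 ± 0.174 CPM in mutants and 0.406 ± 0.131 CPM in controls (SD, n = 5 each). That line had fractional counts in all 10 libraries.

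Of 30 table lines for other lipid uptake and cholesterol transport genes 29 were tested, with a median of 0.02, 15 above 0 and 14 below. Without the block 0 passed in edgeR or DESeq2 and 0 had an unadjusted edgeR p under 0.05. With it edgeR called 0 and DESeq2 1, scarb2a, whose product is a lysosomal membrane protein. Of the 29, 6 higher and 4 lower in mutants had an unadjusted edgeR p under 0.05 with the block. The share of all tested genes was 10.5%. In the sterol list such genes were 16 higher and 1 lower of 22, and in the fatty acid list 4 higher and 1 lower of 37. Scarb2a was at 154 ± 21.9 CPM in mutants and 134 ± 16.8 CPM in controls (SD, n = 5 each), higher in 5 of 5 numbers, and the block gave a log2 fold change of 0.20 with an edgeR adjusted p of 0.0638. Abcg1, a sterol exporter gene, had a log2 fold change of -0.51 at 0.429 ± 0.0579 CPM in mutants and 0.614 ± 0.134 CPM in controls (SD, n = 5 each). The lipoprotein receptor genes lrp2b and lrp1ab were at 0.50 and -0.13, with blocked edgeR adjusted p-values of 0.534 and 0.262.

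**Figure D4:**
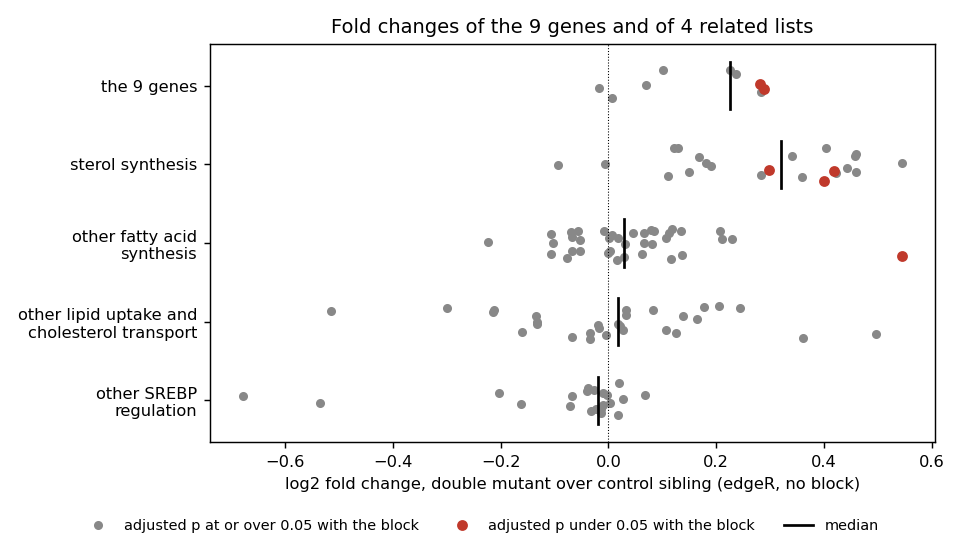
Log2 fold change (edgeR without a block, double mutants over control siblings) of every tested gene among the 9 genes and in 4 related lists. Points are genes, red ones have an adjusted p under 0.05 with the block, and black bars are medians, which are 0.23 for the 9 genes, 0.32 for sterol synthesis, 0.03 for other fatty acid synthesis, 0.02 for lipid uptake and transport and -0.02 for other SREBP regulation. The median of the 9 genes lay between 0.08 and 0.30 when 1 library was left out.

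Genes of the yolk syncytial layer and liver were read beside these lists, since that layer handles yolk lipid. Of 20 table lines 18 were tested. Without the block 16 of the 18 had a log2 fold change above 0, with a median of 0.08, and with the block 14 did. Among all 20802 tested genes 10557 lay above 0 without the block and 10398 with it. Of the list 0 passed without the block in edgeR, 0 had an unadjusted p under 0.05 there, and 1 passed with the block, the apolipoprotein gene apoa4b.2 (0.32, edgeR adjusted p 0.00558), whose counts were not whole in any library. With the block 6 of the 18 had an unadjusted edgeR p under 0.05, where 10.5% of all tested genes had one. These 6 were all higher in mutants. The summed level of the list ran from 24602 to 34853 CPM in mutants and from 25108 to 30929 CPM in controls, so the groups overlapped. The liver markers fabp10a and ttr were too low to be tested, at 0.259 and 0.174 CPM in mutants and 0.185 and 0.0822 CPM in controls. The part of yolk syncytial RNA in the differences of mid1ip1b, elovl6 and the sterol genes was not tested.

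For 4 of the genes, the most similar profiles over the 10 libraries were picked from all tested genes by Pearson correlation of log2 CPM. These are descriptions, and libraries of the same number share a profile over most genes. For elovl6 they were EIF1B (0.93), zgc:110712 (0.93) and acat2 (0.92), the last a member of the sterol synthesis list. For insig1 they were ssrp1b (0.90), gnl1 (0.88) and scarb2a (0.87). For mid1ip1b they were nkd3 (0.91), BX936303.1 (0.90) and MFAP4 (0.90), and for srebf2 taf2 (0.90), nlrc3l (0.89) and ppp2r5a (0.89).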

How the data were processed

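PolyA RNA was sequenced in paired ends, per the labels' protocols. The submitters' processing notes list STAR 2.5.3a and RSEM 1.3.0 and the build GRCz10 (danRer10), without roles. The authors deposited expected counts per gene, of which 17.8 to 21.6% in a library were not whole, and FPKM values as log2(FPKM + 0.1). Whether counting used the strand is not given in the sources used here. Groups, numbers and the members' symbols were taken from the labels and the table. The genes and lists were chosen with earlier results of these data known.

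After rounding of the expected counts, edgeR 4.0.16 in R 4.3.3 tested them (filterByExpr, TMM scaling, robust quasi-likelihood test, two-sided). Adjustment over the 20802 tested genes followed Benjamini and Hochberg (threshold 0.05). DESeq2 1.42.0 and limma 3.58.1 (limma-trend, with a pseudocount of 1 or 0.1 on FPKM before log2) were alternatives. Exact two-sided permutation tests used 252 assignments, with a smallest possible p of 0.00794. Fold changes are double mutants over control siblings, with edgeR's 95% interval. CPM cover 20.5 to 36.5 counts each. Fits were tested on simulated counts.

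What a number stands for is not in the labels. Deviations from group means correlated at 0.54 to 0.60 between libraries of the same number, over 0.1 in 5 of 5 pairs, so numbers were read as pairs. Between different numbers they ran from -0.47 to 0.51, the highest for numbers 2 and 3. Among libraries of the other group, each of the 10 libraries correlated best with that of its own number. By chi-square per degree of freedom, libraries of numbers 1, 3 and 6 were each nearest to the other of that number. Those of numbers 2 and 4 were not. Mutant 2 was nearer to mutant 3 (11.8) than to control 2 (12.0), and control 2 was nearer to control 3 (9.55). Mutant 4 was nearer to control 6 (16.3) than to control 4 (17.6), and control 4 was nearer to control 6 (15.2). The chi-square was not corrected for depth, with which it rises, and control 6 is the smallest library. No 2 libraries were close to identical (5.83 or more on that scale). Named genes were the 9 genes, the 4 list genes of smallest unblocked p per list, list genes called in either fit, and the 3 most similar profiles. Relatives of the 9 genes, the protease genes, fabp10a, ttr and the genes of the additional observations fall outside that rule and were chosen with their values seen. Unblocked and permutation p-values are set against the spread between pools of a group. Blocked p-values are set against the spread that is left once differences between numbers are removed.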

Additional observations from a re-analysis of the deposited data

Results flagged for a closer look

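Of 20 groups of 5 values examined (the 9 genes and the total counts, in mutants and in controls), 1 held a library far from the other 4, where chance gives about 1. The total of control 6 was 21.5 M (M, 1000000 counts), while controls 1 to 4 lay between 32.8 and 36.0 M. For none of the 9 genes did a single library stand apart in this way in either group. Without control 6, 0 of the 9 genes passed in the unblocked edgeR fit.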

How the results depend on the processing

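The count of genes past the threshold, 1 in the unblocked edgeR fit, was 6 with DESeq2, 2 and 0 with limma-trend at FPKM pseudocounts of 1 and 0.1, 0 to 3 when 1 library was left out, 53 with the replicate block and 93 with it in DESeq2. With the block and without number 1, 2, 3, 4 or 6 it was 17, 17, 21, 365 and 79. Of the 9 genes, 0 passed in every setting without the block, 2 with the replicate block in either tool, 2 without number 4 and 0 without any other number. The sterol list had 0 in edgeR, 1 in DESeq2, 3 with the replicate block in either tool, and 2, 3, 2, 6 and 2 without number 1, 2, 3, 4 or 6. The other 3 pathway lists had 0 in the settings tried, except for fatty acid synthesis (1 with the block in edgeR, 1 without number 4), lipid uptake (1 with the block in DESeq2, 3 without number 4) and SREBP regulation (1 without number 4). The SREBP regulation gene was paqr3b, lower in mutants. With all numbers its blocked log2 fold change was -0.59 (edgeR adjusted p 0.0831), and its counts ran from 1 to 247 in a library. The sign of the log2 fold change turned for 3 of the 9 genes. Without single libraries srebf1 ran from -0.016 to 0.12, scap from -0.088 to 0.087 and fasn from -0.12 to 0.077, and fasn was at 8.6e-05 with limma-trend at a pseudocount of 1. With the block, srebf1 was at -0.073 without number 4, scap at -0.016 and -0.065 without number 3 or 4, fasn at 0.027 without number 2, and rnf139, a list gene, at -0.0095 without number 2. Srebf2, insig1, ldlra, scd, mid1ip1b and elovl6 kept their sign in 22 of 22 alternatives, but without single libraries ldlra ran from 0.04 to 0.60, scd from 0.08 to 0.44 and srebf2 from 0.02 to 0.22. The yolk syncytial list was read only in edgeR with and without the block. Among the named genes the block changed no call other than those given. The cause of these changes was not tested. Ldlra and scd had few counts, and the part of depth in their ranges was not tested.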

Other observations

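Some further genes of sterol metabolism were picked with their values known, and no group statement rests on them. Soat2, which esterifies cholesterol for storage and secretion, was at 12.0 ± 2.33 CPM in mutants and 14.7 ± 3.96 CPM in controls (SD, n = 5 each), lower in the mutant of 5 of 5 numbers, and the block gave a log2 fold change of -0.29 with an edgeR adjusted p of 0.199. The cholesterol exporter gene abca1a was at 64.6 ± 16.1 CPM in mutants and 67.7 ± 16.2 CPM in controls, and abca1b at 273 ± 36.7 CPM in mutants and 267 ± 26.9 CPM in controls (SD, n = 5 each). Of the sterol synthesis list itself, the 2 genes below 0 were lbr (-0.09), which encodes a sterol reductase that is also a nuclear membrane protein, and hmgcrb (-0.01), 1 of the 2 HMG-CoA reductase genes. Its partner hmgcra had a log2 fold change of 0.46, with a blocked edgeR adjusted p of 0.208, and was higher in 5 of 5 numbers.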
